A study of Equus caballus with 18 samples.

Results

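SNX5, CLK4 and ARRB2 were examined in superficial gluteal muscle of exercised adult Thoroughbred horses, before and during oral clenbuterol, a β2-agonist. These 3 genes were chosen from the changes measured at the low dose: among genes with a single symbol that were higher on day 14, they were the 3 with the smallest p-values in the paired comparison. Each was represented by 1 probeset, so that 3 of 30559 probesets are described, and no other probeset carried any of these symbols. Because the low dose change chose them, it is given below as a description and without a test. The escalating dose was given to other horses, which played no part in the choice, and there the genes were tested.

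Each biopsy was read on 1 EquGene-1.0-st array, which gave 18 arrays in all. In the low dose regimen 5 horses (L1 to L5) were biopsied before the drug and on day 14 of 0.8 μg/kg BID. In the escalating regimen 4 other horses (E1 to E4) were biopsied before the drug and on day 28, after steps of 0.8, 1.6 and 2.4 μg/kg BID of 3 days each and during 21 days at 3.2 μg/kg BID. Baseline biopsies came from the same horses without clenbuterol, and all horses were exercised throughout and sedated for each biopsy. Ages and sexes were not given for single horses. No horse was followed without the drug, so drug and elapsed time cannot be told apart, and neither can dose, day and cohort between the regimens.

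β-adrenergic receptors activate adenylyl cyclase through a stimulatory G protein, and the resulting cAMP activates protein kinase A. Receptors occupied by an agonist are phosphorylated by G protein-coupled receptor kinases and then bound by β-arrestins, which uncouple them from the G protein and link them to clathrin-coated pits. ARRB2 encodes β-arrestin-2, 1 of these adaptors. Internalized receptors are sorted in endosomes for degradation or return to the surface, and SNX5 is a sorting nexin with a BAR domain that bends and tubulates endosome membrane together with SNX1 or SNX2. CLK4 encodes a nuclear kinase that phosphorylates SR proteins, the serine- and arginine-rich factors that select splice sites.

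Values are RMA expression values on the log2 scale, on which a change of 1 is a doubling of signal. The arrays of the regimens lay on different scales: the array medians were between 2.42 and 2.74 at the low dose and between 4.06 and 4.5 at the escalating dose, so levels were compared only within a regimen. Within the low dose, the arrays of L4 and L5 had a narrower spread of values over all probesets (SD between 1.20 and 1.41) than those of L1, L2 and L3 (SD between 1.67 and 1.75). Within the escalating dose, the groups of arrays did not overlap in median or spread. Array medians were between 4.06 and 4.22 at baseline and between 4.45 and 4.5 on day 28. The spread was narrower on day 28 (SD between 1.49 and 1.53) than at baseline (SD between 1.71 and 1.80). The 8 markers of skeletal muscle had a mean level between 8.54 and 10.8 on all 18 arrays, above every array median.

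At baseline of the low dose, SNX5 was at 3.11, 3.56, 3.57, 2 and 1.4 (log2) in L1 to L5. On day 14 it was at 4.73, 4.89, 4.6, 3.35 and 2.23 in the same order. SNX5 was thus higher in each of the 5 horses than in its own baseline, but the groups overlapped, because L4 and L5 were low at both times. The baseline values of L4 and L5 lay below the medians of their own arrays (2.65 and 2.69). In L5 the day 14 value did so too (2.23 against a median of 2.74). The within-horse changes were 1.62, 1.33, 1.03, 1.35 and 0.83. Their mean was 1.23 ± 0.307 (SD, n = 5 horses), a 2.35-fold higher signal. Being bulk muscle, these biopsies cannot tell a change of RNA in each cell from a change in the share of cells that carry it.

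CLK4 was at 3.72, 4.36, 3.88, 1.87 and 2.28 at baseline of L1 to L5. It was at 5.21, 5.36, 4.75, 3.01 and 3.26 on day 14. The ranges overlapped here too, and again L4 and L5 had the lowest values at both times. At baseline these values lay below the medians of their arrays (2.65 in L4 and 2.69 in L5). The changes were 1.49, 1, 0.87, 1.14 and 0.98, with a mean of 1.10 ± 0.24 (SD, n = 5), which is 2.14-fold. L1 had the largest change of the 5 horses for CLK4 as it had for SNX5.

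ARRB2 was at 3.08, 3.33, 2.87, 2.34 and 2.79 at baseline and at 3.85, 4.13, 3.67, 3.12 and 3.63 on day 14. In L4 the baseline value lay below the array median of 2.65. The changes were 0.77, 0.8, 0.8, 0.78 and 0.84 in L1 to L5, with a mean of 0.80 ± 0.0268 (SD, n = 5), which is 1.74-fold. The levels of ARRB2 differed by about 1 between horses at either time, whereas its changes lay within 0.07 of each other. An SD of 5 changes smaller than that of ARRB2 was found in 0.0131% of 30558 probesets, whose median SD was 0.448. CLK4 had a smaller SD than all but 14.4% of probesets and SNX5 than all but 25.8%. The probesets at the low end of these spreads were favoured by the ranking that chose the 3 genes.

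**Figure D1:**
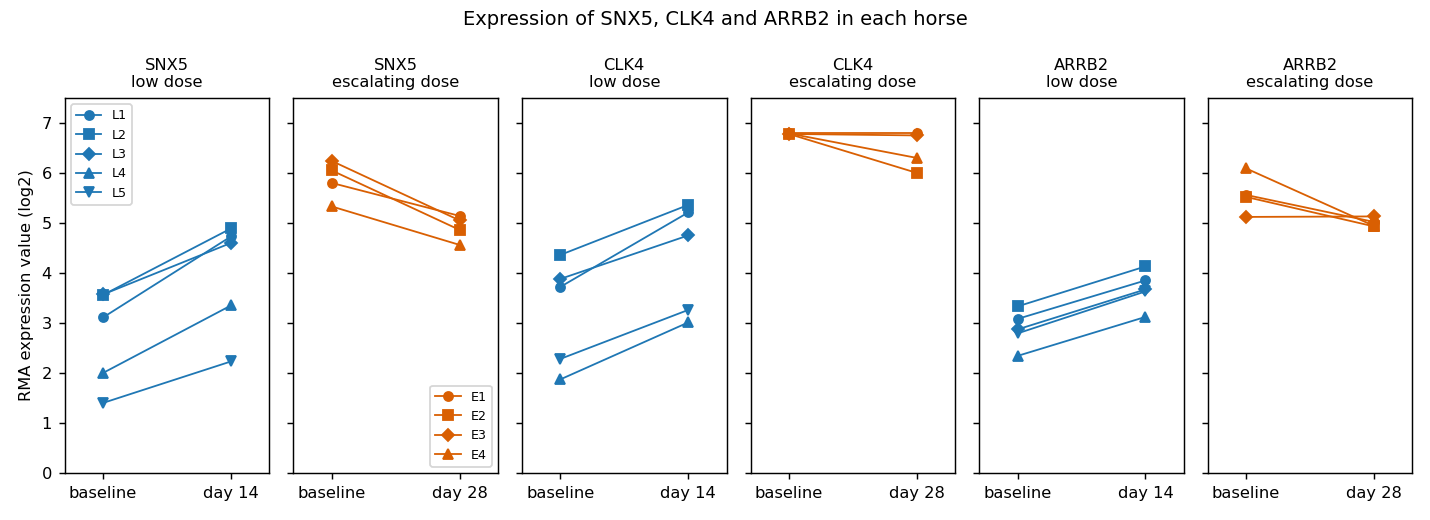
RMA expression values (log2, y axis) of SNX5, CLK4 and ARRB2 at baseline and on the drug, with 1 line for each horse (L1 to L5 in blue, E1 to E4 in orange). All 15 lines of the low dose go up, whereas SNX5 goes down in 4 of 4 horses of the escalating dose.

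Limma called 0% of 30558 probesets at the low dose (adjusted p under 0.05), with 2666 (8.72%) at an unadjusted p under 0.05, so no gene had passed the adjusted threshold when these 3 were picked from the top of the order. Of all probesets, 4.87% were higher in 5 of 5 horses, and nothing is read from the 3 members being among them. The next genes in the order were SPIN1, a chromatin reader, SARNP, an RNA export factor, and BUB3, a mitotic checkpoint protein, with mean log2 changes of 0.96, 0.95 and 0.81, each higher in 5 of 5 horses. These lie next to the change of ARRB2, and no gap in size separated the genes just inside from those just outside. Among all probesets that were higher, with or without a symbol, SNX5 stood in place 2, CLK4 in place 6 and ARRB2 in place 12. When L4 and L5 were left out the mean changes were 1.33, 1.12 and 0.79, and the places among named genes were 4, 49 and 94.

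Skin markers moved on the same arrays. Of 6 measured skin epithelium markers, 0 were called and 5 were lower at an unadjusted p under 0.05 on day 14 (limma), and their mean level was between 2.42 and 5.25 at baseline and between 1.86 and 2.57 on day 14. KRT1, a keratin of the outer skin, was at 8.74, 8.97 and 9.26 in the baseline biopsies of L1, L2 and L3 and at 1.85, 2.28 and 1.65 on day 14. In L4 and L5 KRT1 was at 3.11 and 2.18 at baseline and at 3.15 and 2.27 on day 14. In those horses SNX5 was higher by 1.35 and 0.83, CLK4 by 1.14 and 0.98 and ARRB2 by 0.78 and 0.84, and the part of skin in the low dose changes was not tested. Of 8 skeletal muscle markers 2 were lower at an unadjusted p under 0.05 (median -0.38). The other marker lists (endothelium, smooth muscle, leukocytes, red blood cells, adipocytes, Schwann cells) had median log2 changes between -0.08 and 0.14 at the low dose.

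On day 28 of the escalating dose SNX5 was lower than baseline. It was at 5.8, 6.05, 6.24 and 5.33 (log2) at baseline in E1 to E4 and at 5.14, 4.86, 5.05 and 4.56 on day 28. The groups did not overlap, a pattern of lower levels that 19.7% of all probesets showed at this dose. The within-horse changes were -0.66, -1.19, -1.19 and -0.77, with a mean of -0.95 and an SE of 0.159 (95% interval -1.33 to -0.58, limma adjusted p = 0.00261), and 24.8% of all probesets were likewise lower in each of these horses. The signal of SNX5 thus fell 1.94-fold, and the decrease was called under each of the 9 other settings and whichever horse was left out.

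ARRB2 was at 5.56, 5.52, 5.12 and 6.09 at baseline in E1 to E4 and at 5.02, 4.93, 5.13 and 4.94 on day 28. ARRB2 was lower in 3 of the horses and level in E3, and the day 28 values lay much closer together (SD 0.0926, n = 4) than the baseline values (SD 0.398, n = 4). The changes were -0.54, -0.59, 0.01 and -1.15, with a mean of -0.57 (SE 0.203, 95% interval -1.05 to -0.09). This did not pass the threshold after adjustment over all probesets (limma, adjusted p = 0.0582). It was on the other side of the threshold in several settings: without E3 the change was -0.76 (limma, adjusted p = 0.027), and over all settings the adjusted p lay between 0.00724 and 0.199.

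CLK4 was at 6.79, 6.78, 6.78 and 6.79 at baseline in E1 to E4, values that span 0.01. On day 28 it was at 6.79, 6, 6.75 and 6.3. CLK4 was thus level in E1 and lower in E2 and E4, with changes of -0.78 and -0.49, while E3 was at -0.03. The mean change was -0.33 (SE 0.18, 95% interval -0.75 to 0.10), and it did not pass the test (limma, adjusted p = 0.19). The direction of CLK4 depended on how the arrays were scaled: the change was 0.23 after quantile normalization (limma, adjusted p = 0.375), 0.65 and called higher after cyclic loess (limma, adjusted p = 0.0308), and -0.65 and called lower after median centring of the arrays (limma, adjusted p = 0.0243). No direction at the escalating dose can therefore be given for CLK4.

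These values stand against many changes on the same arrays. Limma called 44.7% of 30559 probesets at the escalating dose, 24.5% higher and 20.2% lower, and the change depended on brightness. SNX5 and ARRB2, with mean values of 5.38 and 5.29, were in decile 8 of 10 of probesets ordered from the dimmest, where the median change was -0.15, 33.2% were called lower and 21.2% higher. CLK4, with a mean of 6.62, was in the brightest decile, where the median change was -1.07 and 65.8% were called lower. The change of CLK4 was thus smaller than the median change of its decile, and those of SNX5 and ARRB2 were larger than the median of theirs.

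**Figure D2:**
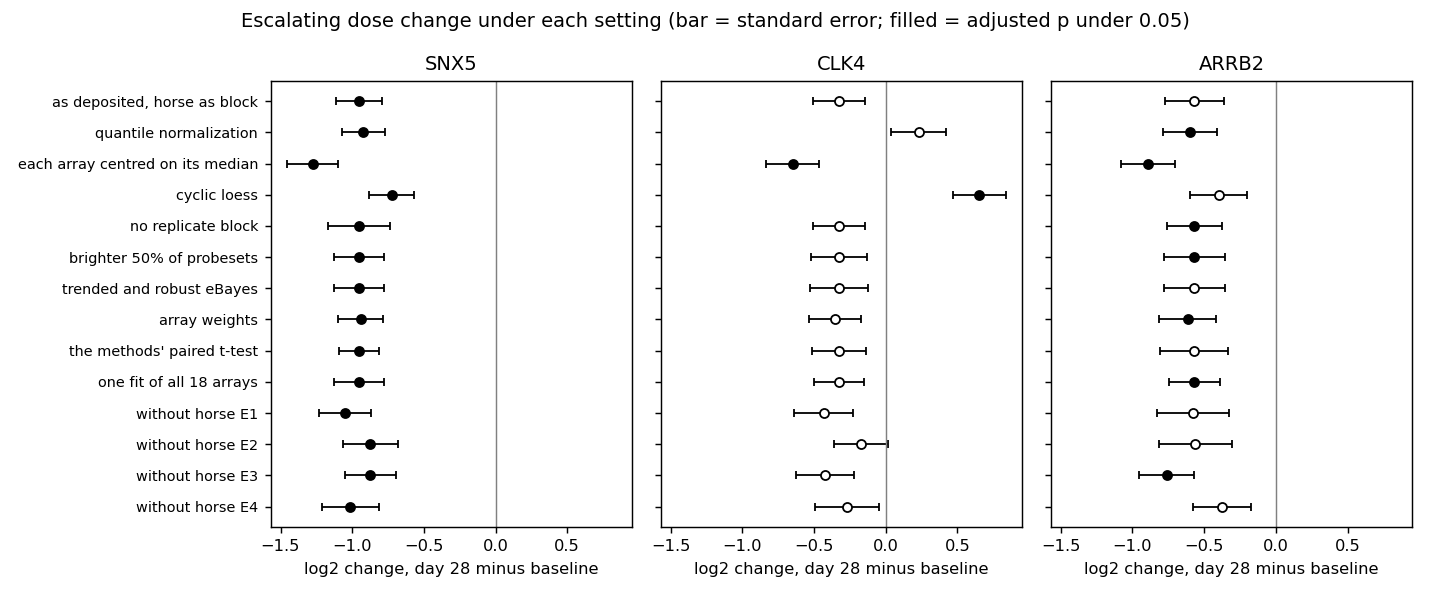
Change of SNX5, CLK4 and ARRB2 on day 28 of the escalating dose (log2, x axis) under each setting (rows), with bars for the standard error and filled points for an adjusted p under 0.05. SNX5 lies between -1.28 and -0.73 in every row, whereas CLK4 lies on both sides of 0.

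The change at the escalating dose minus that at the low dose was -2.18 for SNX5, -1.42 for CLK4 and -1.37 for ARRB2 (log2). The low dose change in each difference was used to choose the genes, so the differences were not tested. For CLK4 the sign at the escalating dose turned with the scaling, as given above. Of all probesets, 2.37% were higher in every low dose horse and lower in every escalating dose horse, as SNX5 was. These were 723 of the 1488 probesets that were higher in every low dose horse (48.6%) and 9.55% of the 7571 that were lower in every escalating dose horse. In the opposite pattern, 208 of the 1488 (14%) were higher in every horse of both regimens, and 31% of all probesets were higher in every escalating dose horse. Of the next genes in the order at the low dose, SPIN1 fell by 1.78 on day 28 (limma, adjusted p = 0.000323, 4 of 4 horses) and BUB3 fell by 1.09 (limma, adjusted p = 0.000751, 4 of 4 horses). After cyclic loess BUB3 was at -0.27 and not called. SARNP was at 0.12 (limma, adjusted p = 0.623), and the sign turned under the other scalings.

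The paralogs of each gene were compared beside it. SNX1, a partner of SNX5 in endosome tubules, had a mean log2 change of 0.56 (SE 0.145, limma adjusted p = 0.462) at the low dose, higher in 5 of 5 horses. SNX2 and SNX6, the other widely expressed members of the group, were at 0.44 and 0.43, each higher in 5 of 5 horses and neither called (adjusted p of 0.515 and 0.525 from limma). SNX32 was at -0.01. The SNX5 change was thus the largest of the group, but SNX5 had been chosen from these same changes.

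At the escalating dose SNX1 fell by 0.92 (SE 0.173, limma adjusted p = 0.00449, 4 of 4 horses), close to the SNX5 value. SNX2 was at -0.61 and just outside the threshold (limma, adjusted p = 0.056), though lower in 4 of 4 horses, and it was called after quantile normalization and after median centring. SNX6 was at -0.18 and SNX32 at -0.02, with adjusted p of 0.542 and 0.941 from limma. SNX6, the closest relative of SNX5, was lower in 2 horses and higher in 2, and after quantile normalization and cyclic loess it was at 0.32 and 0.70, called higher in the latter.

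The other CLK kinases were set beside CLK4. At the low dose CLK1, CLK2 and CLK3 were at 0.35, 0.62 and 0.15, with single horses between -0.37 and 1.84, and none was called (adjusted p between 0.611 and 0.862 from limma). At the escalating dose CLK3 fell by 1.56 (SE 0.162, limma adjusted p = 0.00035), CLK1 by 1.33 (SE 0.151, limma adjusted p = 0.000489) and CLK2 by 1.00 (SE 0.152, limma adjusted p = 0.00174), each in 4 of 4 horses. CLK1 was at -0.25 and not called after cyclic loess. On the deposited scale CLK4 was the member of the CLK group with the smallest change at the escalating dose and the largest at the low dose, and the differences between the kinases were not tested.

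ARRB1 encodes β-arrestin-1, the other β-arrestin. At the low dose its changes were -0.05, -0.73, 0.16, -0.21 and 0.68 in L1 to L5, a mean of -0.03 (SE 0.214, limma adjusted p = 0.981). At the escalating dose ARRB1 fell by 1.14 (SE 0.169, limma adjusted p = 0.00152, 4 of 4 horses), and it was called lower under each of the 3 other scalings.

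**Figure D3:**
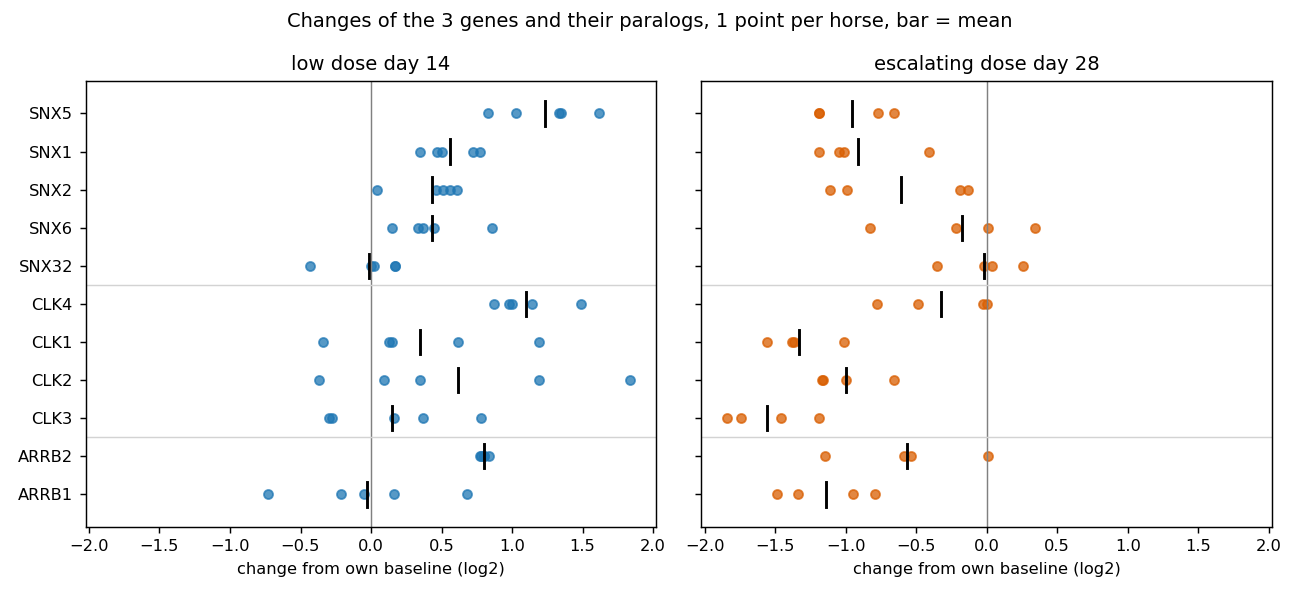
Change from own baseline (log2, x axis) of SNX5, CLK4 and ARRB2 and their paralogs, with 1 point for each horse and a bar for the mean. ARRB2 has 5 nearly coincident points at the low dose where ARRB1 runs from -0.73 to 0.68 (ARRB2 was chosen on these changes), and at the escalating dose the means of CLK1, CLK2 and CLK3 lie left of that of CLK4.

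Genes of the surrounding pathways were then counted. At the low dose 0 of 91 other genes in these lists were called by limma, either within the regimen or in a fit of all 18 arrays, and within the regimen 11 were higher and 2 lower at an unadjusted p under 0.05 (4.37% and 4.35% of all probesets). Among the 7 other SNX-BAR and retromer genes the 3 higher ones were SNX1, SNX2 and SNX6, and the median change was 0.32. Of 11 SR splicing factors, 3 were higher at this unadjusted level (SRSF7 at 0.64, SRSF5 at 0.66 and TRA2A at 0.51, each in 5 of 5 horses), and the median was 0.33. Single genes on the same side were the sorting nexin SNX16 at 0.40, SRPK1, another kinase of SR proteins, at 0.48, the receptor kinase GRK2 at 0.49, the clathrin adaptor AP2B1, a β-arrestin binding partner, at 0.56 and the catalytic subunit of protein kinase A, PRKACA, at 0.45. The lower genes were the α-arrestin ARRDC2 at -0.69 and the sorting nexin SNX8 at -0.44, each in 5 of 5 horses. The 6 other CLK and SRPK kinases had a median of 0.32, and the medians of the remaining lists lay between -0.14 and 0.25. The median was 0.01 for all probesets and 0.02 for all genes with a single symbol.

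At the escalating dose most called genes of these lists were lower, where 20.2% of all probesets were called lower and 24.5% higher. These shares depended on brightness: 33.2% were called lower in decile 8 (median -0.15) and 65.8% in the brightest decile (median -1.07). The lists were not set against probesets of like brightness, so their counts and medians cannot be told apart from that dependence. The median change was 0.08 for all probesets and -0.03 for all genes with a single symbol, to which the lists belong. Of 8 SNX-BAR and retromer genes, 4 fell, 0 rose and 4 did not pass the test (median -0.76, and -0.45 after cyclic loess). VPS26B and VPS29, subunits of the retromer that retrieves cargo from endosomes, fell (log2 changes of -1.87 and -1.08), and VPS29 was not called after cyclic loess (-0.37). Of 24 other sorting nexins, 12 fell and 2 rose (median -0.39, and -0.71 with 16 lower after median centring): SNX3, SNX9 and SNX24 fell (-2.41, -2.06 and -2.05), and SNX10 rose by 1.23. Each of these nexins kept its direction and its call under the 3 other scalings.

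Of 7 CLK and SRPK kinases, 4 fell and 3 did not pass (median -0.998, and -0.60 after cyclic loess), and the muscle kinase SRPK3 fell by 1.31. Of 11 SR splicing factors, the substrates of these kinases, 7 fell and 2 rose (median -0.88). SRSF1, SRSF5, SRSF6 and SRSF10 fell (-1.90, -1.83, -1.26 and -0.95), and SRSF12 rose by 1.18. After cyclic loess only 3 of the SR factors were called lower, the median was -0.09, and SRSF6 and SRSF10 were at -0.09 and -0.04 and not called.

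Of 9 arrestins and arrestin domain proteins, 3 fell and 6 did not pass the test (median -0.21), and 5 were called lower after quantile normalization and after median centring (medians of -0.51 and -0.54). Besides ARRB1, these were ARRDC1 and ARRDC2, α-arrestins, which fell (-1.07 and -0.70). Of 6 G protein-coupled receptor kinases 2 fell and 2 rose: GRK2, which phosphorylates agonist-bound receptors, fell by 1.39, GRK5 fell by 0.56, and GRK7 and GRK4 rose by 0.94 and 0.59. Their median was 0.08 and turned to between -0.24 and -0.13 under the other scalings, under each of which GRK4 was not called. GRK7 was not called after quantile normalization or cyclic loess, which left 0 of the receptor kinases called higher. GRK5 was not called without E1, E2 or E3.

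Of 15 genes of clathrin endocytosis, 12 fell and 1 rose (median -1.07, and -0.66 with 9 lower after cyclic loess). The epsin EPN1, which links cargo to clathrin, fell by 2.39. The clathrin assembly protein PICALM fell by 1.89, dynamin-2 (DNM2), which cuts vesicles from the membrane, fell by 1.62 and the AP-2 subunit AP2A2 fell by 1.36, and these 4 genes kept their calls under the other scalings. Of 14 genes of the stimulatory G protein and cAMP list, which holds GNAS, adenylyl cyclases, PDE4 phosphodiesterases, protein kinase A subunits and the factors CREB1 and CREM, 7 fell and 1 rose (median -0.79). The adenylyl cyclases ADCY9 and ADCY2 fell (-2.25 and -1.54), as did PRKACA (-1.78) and the stimulatory G protein GNAS (-1.43), whereas the cAMP-responsive factor CREM rose by 1.12. After cyclic loess 4 genes of the list were called lower and 3 higher, the median was -0.16, and GNAS was at -0.32 and not called. Endothelial and smooth muscle markers moved the same way on these arrays: 5 of 6 in each list were lower, with medians of -2.07 and -1.27, and 4 of 5 leukocyte markers were higher (median 0.77, with 2 or 3 called under the other scalings). The mean level of the endothelial list was between 6.3 and 6.82 at baseline and between 4.79 and 5.04 on day 28. Of 8 skeletal muscle markers 3 were called lower and 0 higher (median -0.19), but 2 lower and 4 higher after cyclic loess (median 0.48). Of 3 red blood cell markers 2 were called higher, with 0 or 1 under the other scalings. Of 3 Schwann cell markers 1 was called higher and 1 lower. The adipocyte list had a mean level between 4.96 and 7.72 at baseline and between 4.92 and 5.07 on day 28, with 1 of 5 markers called lower. KRT1 was at 6.9, 3.8, 2.82 and 7.12 at baseline in E1 to E4 and at 2.62, 3.2, 2.73 and 2.91 on day 28. Of the 6 skin markers 1 was called lower and 3 higher as deposited, but 3 lower and 2 higher under each of the other scalings. E1 and E4, with the highest KRT1 at baseline, had SNX5 changes of -0.66 and -0.77 and ARRB2 changes of -0.54 and -1.15. The part of these cell types in the changes of SNX5 and ARRB2 was not tested.

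**Figure D4:**
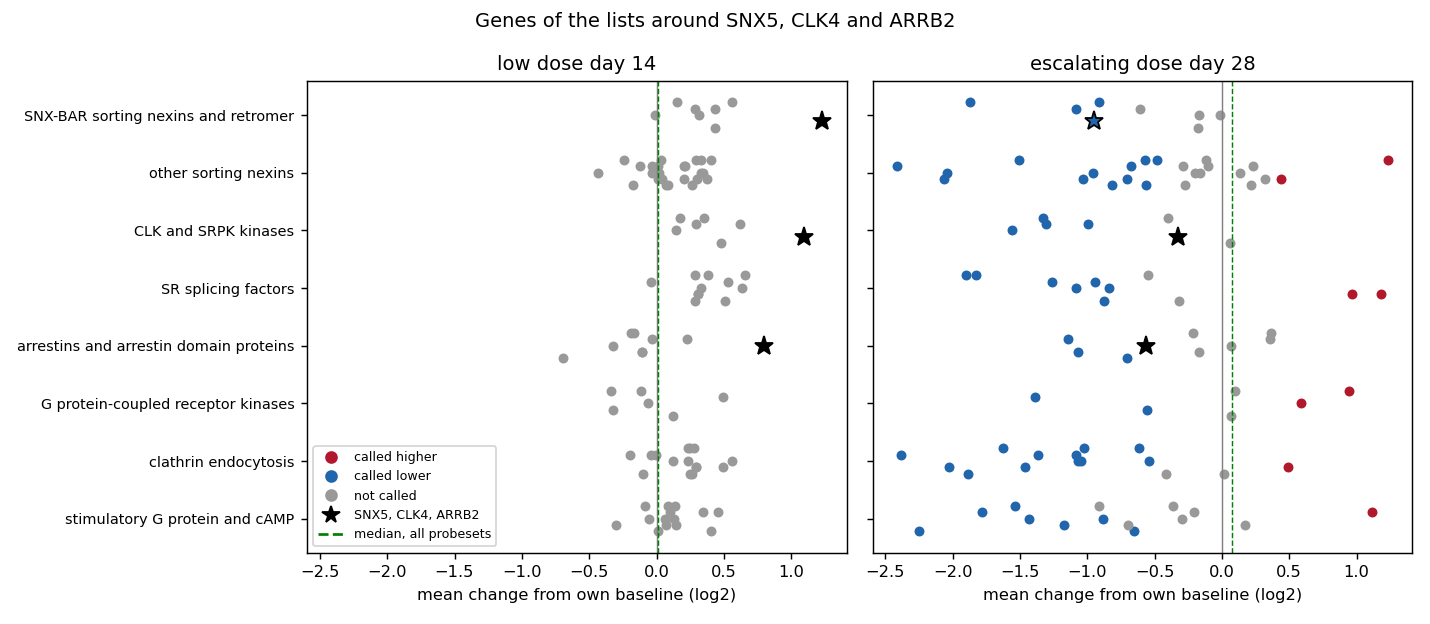
Mean change from own baseline (log2, x axis) of each measured gene in the 8 lists around SNX5, CLK4 and ARRB2 (stars), in red or blue where limma called it and grey where not, with a dashed line at the median of all probesets. At the low dose the 3 stars lie to the right of every other gene (they were chosen on these changes). At the escalating dose they lie on the left on the deposited scale, with SNX5 alone of the 3 called, and the side of CLK4 turned with the scaling.

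The patterns of the 3 genes were alike over the 18 arrays after each horse's own mean was subtracted (Pearson's r of 0.91 for SNX5 and CLK4, 0.87 for SNX5 and ARRB2 and 0.89 for CLK4 and ARRB2), which follows in part from their choice. Among 16053 other named genes, those most like SNX5 were MSRB1, a methionine sulfoxide reductase (r = 0.98), RCOR3, a corepressor subunit (r = 0.97), and DENND4C, an activator of RAB GTPases (r = 0.96). Their mean log2 changes were 0.75, 0.90 and 0.90 at 0.8 μg/kg on day 14, against -0.58, -0.95 and -0.90 under the escalating regimen. MSRB1 was at -0.19 after quantile normalization and at 0.16 after cyclic loess, and not called in either, and DENND4C was at -0.31 and not called after cyclic loess. Most like CLK4 were NRGN, a calmodulin-binding protein, the cytokine receptor kinase JAK2 and the lipid-binding protein OSBPL1A, with r between 0.94 and 0.96. Most like ARRB2 were DPY19L4, NRGN and MYRFL, with r between 0.93 and 0.94. NRGN, named for both CLK4 and ARRB2, had smaller changes than either, 0.30 on day 14 and -0.13 on day 28 (0.06 after cyclic loess). These correlations are descriptive, rest on 9 horses whose arrays the genes share, and weigh direction more than size.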

How the data were processed

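The authors ran RMA on the array scans with Affymetrix Expression Console and filtered genes in Transcriptome Analysis Console 3.0. The deposited values are log2 expression values, and the sources used here do not say which arrays were normalized together. The 30559 probesets were analysed as deposited in R 4.3.3 with limma 3.58.1. Symbols came from the platform annotation (16789 probesets with 1 symbol, 343 with several, 13427 with none), and a gene with several probesets was represented by its brightest. Horse names in the labels paired the biopsies. The regimens were fitted separately, each with a term for horse, two-sided, with Benjamini-Hochberg adjustment over all probesets (30558 at the low dose, where 1 value was missing), and an adjusted p under 0.05 was called. No 2 arrays held the same values. The members, gene lists and tests were chosen with earlier results of these data known. Named genes are the members, the 3 next in the order, the 3 most alike to each, their paralogs, and up to 4 genes per list by p-value at the escalating dose; SRPK1, AP2B1 and the other genes given at the low dose were named because of their unadjusted p. The fitting code was tested on simulated data. Arrays give no counts, and the number of horses limits the precision. Protein and promoter sequences were not used here.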

Additional observations from a re-analysis of the deposited data

Results flagged for a closer look

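SNX5 was higher on day 14 in 5 of 5 horses of the low dose and lower on day 28 in 4 of 4 horses of the escalating dose, and a change in opposite directions in every horse drew attention to it. The change at the escalating dose minus that at the low dose was -2.18 on the log2 scale. The difference was not tested, because SNX5 was chosen by its low dose change, and 2.37% of all probesets showed the same opposite directions. Among the 1488 probesets that, like SNX5, were higher in every low dose horse, 48.6% showed them. No sample of SNX5, CLK4 or ARRB2 stood far enough from the others of its group to be set apart by the critical values used.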

How the results depend on the processing

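The decrease of SNX5 at the escalating dose was called under all alternatives, between -1.28 (median centring) and -0.73 (cyclic loess), and between -1.05 and -0.87 without 1 horse (adjusted p up to 0.0156 without 1 horse, up to 0.0331 otherwise, limma or paired t-test). ARRB2 was at -0.57 and called with no replicate block, with the brighter 50% of probesets and in a fit of all 18 arrays, and it was also called with array weights (-0.61), after quantile normalization (-0.60) and after median centring (-0.89). Without 1 horse it was between -0.76 (called, without E3) and -0.37. CLK4 was at -0.65 and called after median centring, at 0.23 after quantile normalization and at 0.65 after cyclic loess, and between -0.43 and -0.17 without 1 horse. The change of CLK4 thus turned direction with the scaling, and the cause was not tested. At the low dose the changes were 1.14 to 1.33 (SNX5), 1.00 to 1.15 (CLK4) and 0.79 to 0.81 (ARRB2) without 1 horse, and median centring moved ARRB2 to 0.85. Calls over all probesets at the low dose were 0 as deposited, 2 by the paired t-test, 5 in a fit of all 18 arrays, 178 without L4 and L5 together, and 0 without any 1 horse. Of the 91 other list genes 0 were called at the low dose by the paired t-test. At the escalating dose 13662 were called, 8389 by the paired t-test, and 11079 to 12136 without 1 horse. Without pairing by horse (no replicate block) 13989 were called at the escalating dose and 0 at the low dose, and of the 3 genes only ARRB2 crossed the threshold. Median centring shifted all probesets to -0.24, with 4965 higher and 10038 lower (7498 and 6164 as deposited), and quantile normalization gave 5790 higher and 7321 lower. The median of the receptor kinases turned to -0.18, -0.24 and -0.13 after quantile normalization, median centring and cyclic loess.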
